A study of Mus musculus with 2 samples.

Results

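The 9 genes Prox1, Lyve1, Pdpn, Ccl21a, Mmrn1, Reln, Maf, Scn3a and Nlgn1 were followed through the cells of 2 mouse mammary tumor libraries. They were chosen as genes that mark lymphatic endothelium, and are 9 of the 33696 genes in the count tables. The identifiers in the tables are ENSMUSG00000010175 (Prox1), ENSMUSG00000030787 (Lyve1), ENSMUSG00000028583 (Pdpn), ENSMUSG00000094686 (Ccl21a), ENSMUSG00000054641 (Mmrn1), ENSMUSG00000042453 (Reln), ENSMUSG00000055435 (Maf), ENSMUSG00000057182 (Scn3a) and ENSMUSG00000063887 (Nlgn1). Each was measured in 5 classes of cells, as CPM, the counts scaled to 1e+06 UMIs of the class (a UMI is a barcode that marks 1 captured RNA molecule), and as the share of cells with at least 1 UMI.

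Lymphatic vessels drain fluid and immune cells from tissue towards lymph nodes, and tumors can spread along them. Their endothelium is set up and maintained by the transcription factor PROX1, and responds to VEGF-C through the receptor encoded by Flt4. Lymphatic endothelial cells secrete the chemokine CCL21, which is encoded in the mouse by Ccl21a and near-identical copies and draws dendritic cells and T cells that carry the receptor CCR7. Blood vessel endothelium shares pan-endothelial genes such as Pecam1 and Cdh5 with them and carries more Flt1, Vwf and Emcn.

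PyMT-M and PyMT-N are tumor lines of the MMTV-PyMT mouse model, in which the polyoma middle T antigen drives mammary tumors, and the study sets them apart as rich (High-MAC) and poor (Low-MAC) in macrophages. The lines were grown in the mammary fat pad of female C57BL/6 mice. Tumors were dissociated with collagenase, depleted of cells carrying CD45 or Ter119, enriched with beads against CD31 and CD144, the products of Pecam1 and Cdh5, and sorted. Cells of 3 tumors were pooled for each line and made into 1 10x Genomics 3′ library, so that each line has 1 library, no replicate and no test, and pooled animals cannot be told apart.

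In all, 141067264 UMIs came from 7821 PyMT-M barcodes and 116150425 UMIs from 6974 PyMT-N barcodes. Barcodes with at least 200 genes and at most 10% mitochondrial UMIs were kept, which left 6719 PyMT-M cells (median 21262 UMIs) and 5607 PyMT-N cells (median 18558). The libraries shared 20 barcode sequences, of which 0 PyMT-M and 2 PyMT-N barcodes were lymphatic cells. Lymphatic cells had at least 1 Prox1 UMI and at least 2 UMIs of Pecam1 and Cdh5 together. Other endothelial cells had no Prox1, at least 5 UMIs of Pecam1, Flt1, Emcn and Kdr together and at most 1 UMI of the tumor markers Krt8, Krt18 and Rhox5. Tumor cells had at least 3 tumor marker UMIs and no Pecam1 or Flt1, fibroblasts at least 3000 CPM of Col3a1 and Ptprc+ cells at least 1 UMI of the leukocyte gene Ptprc. Although the labels describe sorted endothelial cells, 4902 PyMT-M cells (73.0%) and 3306 PyMT-N cells (59.0%) met the tumor rule. A cell could meet more than 1 rule, as 60 PyMT-M and 88 PyMT-N cells did, 721 and 695 met none, and doublets were kept. Intervals are exact 95% intervals for the 1 library and cover counting error only.

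Reads of Ccl21a can be shared with its copies, so the sequences of that family come first. Over the 870 bases of the Ccl21a transcript in the GENCODE M21 annotation, the transcript listed in the tables as Ccl21d differs at 6 positions and is 99.3% identical. The coding-only models of Ccl21b and Gm10591 each differ from it at 2 of 402 positions, and Gm13304 at 5 of 837. All 4 copies carry the differences T159A and C269T, counted from 1 at the 5′ end of the Ccl21a transcript with the Ccl21a base first. The 30 bases from position 254 to 283 are shown, with the differing base of C269T in capitals.
Ccl21a: cggcaatcctgttctCaccccggaagcact
Ccl21d: cggcaatcctgttctTaccccggaagcact
Ccl21d and Gm13304 also carry C640T, T812C and G856A, nearer the 3′ end. A read that covers no differing position fits more than 1 copy. In PyMT-N lymphatic cells 32506 UMIs were counted for Ccl21a, 38 for Ccl21d, 4 for Ccl21b, 4 for Gm13304 and 0 for Gm10591. The Ccl21a value is the part that the counting assigned to this entry. Reads that fit several copies may have been divided or dropped, so it is no family total.

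Promoters in the RefSeq table of build GRCm38.p6 were present for 6 of the 9 genes (Prox1, Pdpn, Ccl21a, Mmrn1, Reln and Nlgn1). The 250 bases before the start are printed for the 3 genes with secreted products, all of them higher in lymphatic than in other endothelial cells in PyMT-N. They lie at chr4:42773992-42774241 on the minus strand (Ccl21a), chr6:60944067-60944316 on the plus strand (Mmrn1) and chr5:22344706-22344955 on the minus strand (Reln). Capitals mark matches on either strand to a GATA motif (AGATAA), a MAF half-site (TGCTGA) or a SOX motif (AACAAT).
Ccl21a: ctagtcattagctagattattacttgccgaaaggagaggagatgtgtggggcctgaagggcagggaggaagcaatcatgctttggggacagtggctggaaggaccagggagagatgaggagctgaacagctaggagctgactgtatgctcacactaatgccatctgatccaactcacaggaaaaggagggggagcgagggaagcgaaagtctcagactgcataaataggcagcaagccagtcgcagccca
Mmrn1: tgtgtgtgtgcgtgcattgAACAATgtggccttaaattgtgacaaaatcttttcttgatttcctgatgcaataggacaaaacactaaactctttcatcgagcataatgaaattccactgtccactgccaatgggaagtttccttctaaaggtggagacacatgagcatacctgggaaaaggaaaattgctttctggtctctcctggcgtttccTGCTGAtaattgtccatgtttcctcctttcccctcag
Reln: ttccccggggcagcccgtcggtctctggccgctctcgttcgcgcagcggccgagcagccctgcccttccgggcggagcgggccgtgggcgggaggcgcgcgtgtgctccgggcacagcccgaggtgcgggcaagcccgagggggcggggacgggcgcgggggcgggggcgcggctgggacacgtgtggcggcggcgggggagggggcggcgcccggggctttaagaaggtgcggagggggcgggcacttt
Only the Mmrn1 window held matches among these 3, namely a SOX motif 231 bases and a MAF half-site 37 bases before the start. Among all 32851 promoter windows of the same length, 16.1% held the MAF half-site, 9.42% the SOX motif and 9.99% the GATA motif. Of the 8 windows of the 6 genes, 2 held the MAF half-site, 1 the SOX motif and 0 the GATA motif.

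Lymphatic cells made up a smaller share of the PyMT-M than of the PyMT-N library. The rule found 22 of 6719 PyMT-M cells, or 0.327% (0.205 to 0.495%), and 209 of 5607 PyMT-N cells, or 3.73% (3.25 to 4.26%). Of the cells of both endothelial classes they were 3.61% (2.27 to 5.41%) in PyMT-M and 16.4% (14.4 to 18.6%) in PyMT-N. The intervals did not overlap on either denominator. Depth moved with this difference, since the middle lymphatic cell by depth held 4695 UMIs in PyMT-M and 11820 UMIs in PyMT-N. The part of depth, of the sort and of pooling was not tested. Markers of other cells were present in some of them. More than 1 tumor marker UMI was found in 3 PyMT-M cells, which held 40.6% of that class's 143781 UMIs, and in 15 PyMT-N cells, which held 15.1%. Flt1 was found in 2 and 15 cells and Ptprc in 0 and 3. Without cells that held Flt1, Ptprc or over 1 tumor marker UMI, 18 PyMT-M and 181 PyMT-N cells remained.

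**Figure D1:**
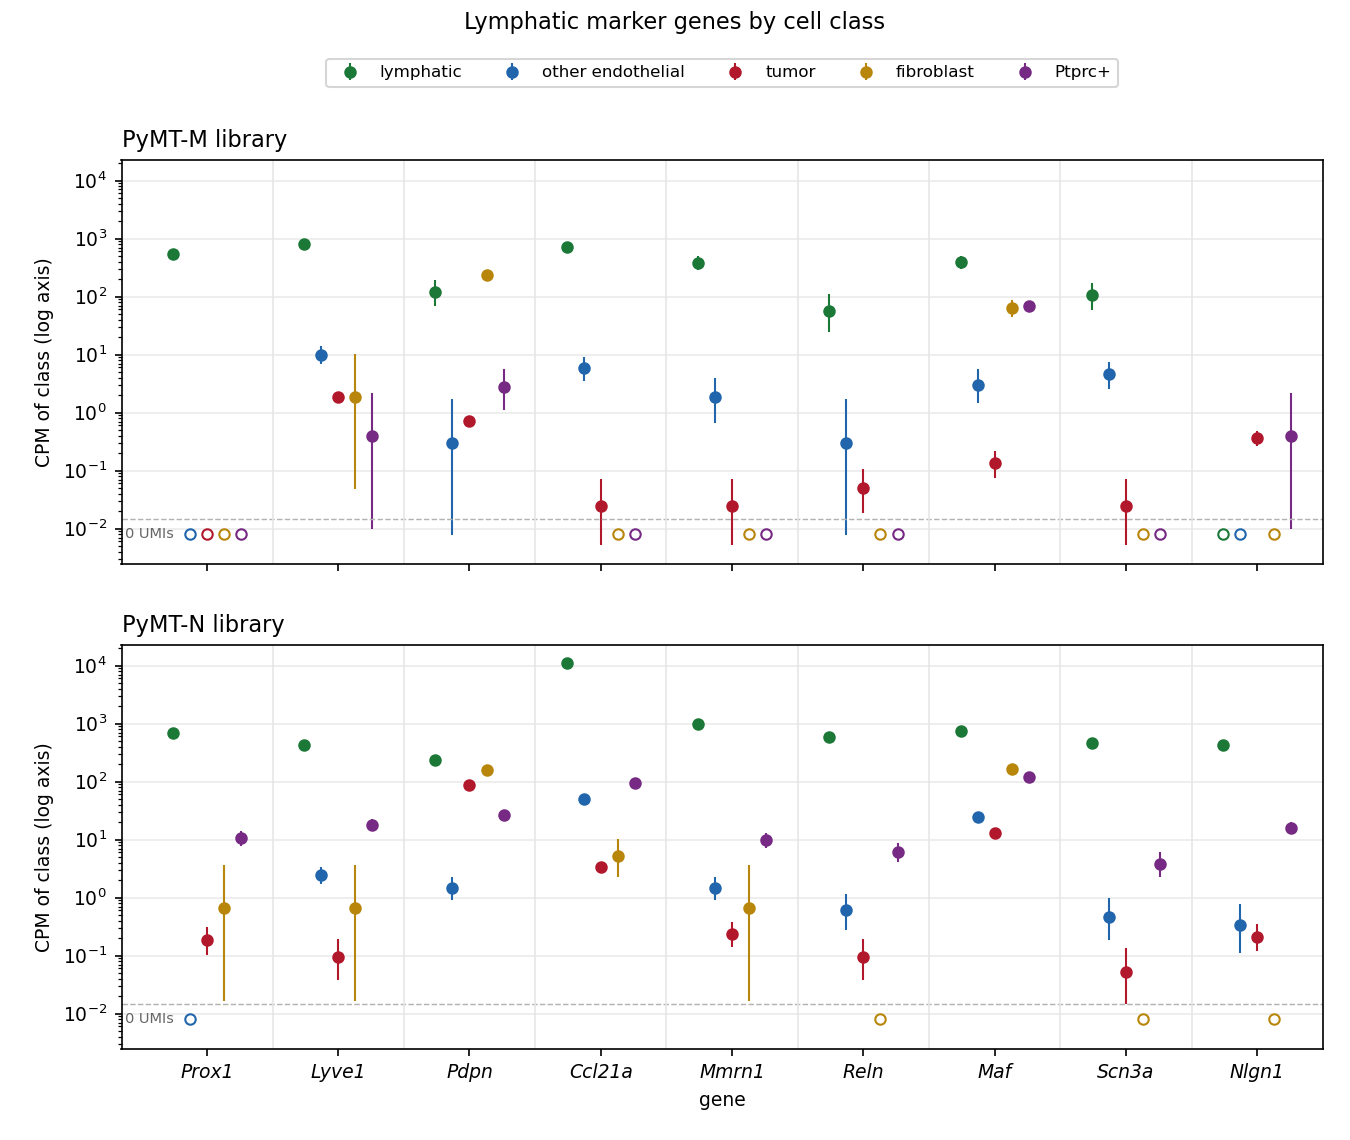
Level of each gene as CPM of the summed UMIs of a class (log axis) in the PyMT-M and PyMT-N libraries; points are class values, bars exact 95% Poisson intervals, and open points classes with 0 UMIs. In PyMT-N the lymphatic class is the highest for all 9 genes, whereas in PyMT-M fibroblasts hold more Pdpn and the lymphatic class holds no Nlgn1.

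In PyMT-N the 8 genes other than Prox1, which the rule for both classes used, were all at least 2-fold higher in lymphatic than in other endothelial cells. Among the 8632 genes with at least 200 UMIs, 6.01% were. Lyve1, Pdpn, Mmrn1, Reln, Scn3a and Nlgn1 held 36, 22, 22, 9, 7 and 5 UMIs in other endothelial cells. They reached 200 UMIs only through the lymphatic class, so they could only be called higher. The genes were also chosen as lymphatic markers, so the count and the levels are a description. The median log2 ratio of the 8 genes was 8.56, against 0.07 over all genes tested. In PyMT-M none of the 9 genes reached 200 UMIs over both classes, so the 3.8% of 3260 genes that passed as higher is no background for them. The 7 genes with UMIs in both classes were higher in lymphatic cells, by log2 ratios from 4.52 (Scn3a) to 8.61 (Pdpn). These ratios rest on few UMIs, such as 17 against 1 for Pdpn and 8 against 1 for Reln. No share over all genes was taken at such counts.

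Prox1 encodes the homeodomain factor that specifies lymphatic identity. It stood at 536 CPM (423 to 669) in PyMT-M lymphatic cells and at 679 CPM (650 to 710) in PyMT-N, with medians of 2 and 7 UMIs per cell. Outside the class it was found in 7 further PyMT-M cells and 19 PyMT-N cells, and in PyMT-N tumor cells it reached 0.185 CPM, or 14 UMIs in 14 cells. Of the lymphatic cells, 10 in PyMT-M and 19 in PyMT-N rested on 1 Prox1 UMI. In PyMT-N those 19 cells held 500 CPM of Flt1, the blood endothelial VEGF receptor, against 5.62 CPM in the 190 cells with more Prox1, and 122 CPM of Lyve1 against 456. In PyMT-M Lyve1 went the other way, at 1080 CPM in the 10 cells with 1 Prox1 UMI and 493 CPM in the 12 with more.

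Maf encodes a bZIP transcription factor known from both lymphatic endothelium and macrophages. It stood at 389 CPM in PyMT-M and 731 CPM in PyMT-N lymphatic cells. In Ptprc+ cells it stood at 69.9 CPM (60.0 to 80.9) and 121 CPM (111 to 132), and in fibroblasts at 63.3 and 167 CPM. Other endothelial cells held 3.03 CPM in PyMT-M and 24.5 CPM in PyMT-N, so that the log2 ratio of lymphatic over other endothelial cells was 7.01 and 4.90. Of the 1065 PyMT-N other endothelial cells 56 also met another rule, and the part of leukocytes in these values was not tested. Among cells that were Ptprc+ and in no other class, those with the macrophage receptor gene Csf1r held 189 CPM in PyMT-M (65 cells) and 164 CPM in PyMT-N (55 cells), and those without it held 96.1 and 63.8 CPM. The tumor cells of the 2 lines stood apart, with 0.132 CPM (0.076 to 0.215) in PyMT-M and 12.9 CPM (12.1 to 13.8) in PyMT-N, where 18.3% of cells had a UMI. In tumor cells the log2 ratio of the PyMT-M to the PyMT-N level was -6.61 (-7.42 to -5.90), in a comparison where 22.3% of 12553 genes were at least 2-fold lower and 19.7% at least 2-fold higher.

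Lyve1 encodes a hyaluronan receptor of the cell surface. It was the one gene with a higher level in PyMT-M than in PyMT-N lymphatic cells, at 807 CPM (667 to 968) against 425 CPM (402 to 449). The share of cells with a UMI was alike, at 59.1% (36.4 to 79.3%) and 56.0% (49.0 to 62.8%). In PyMT-N the counts were uneven, with a median of 1 UMI and a highest value of 76, and the 21 cells with the most UMIs held 56.0% of them. The PyMT-M counts were uneven too, with a median of 1 UMI, and the highest cells held 34, 22, 18 and 14 of the 116 UMIs. Other endothelial cells held 10.0 CPM in PyMT-M and 2.41 CPM in PyMT-N. Ptprc+ cells in no other class held no Lyve1 UMI among 441 PyMT-M cells and 278 PyMT-N cells. The 79 UMIs of all PyMT-N Ptprc+ cells lay in 4 cells, 76 of them in 1 cell.

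Lyve1 was also found in PyMT-M tumor cells, with 227 UMIs in 127 of 4902 cells and up to 8 in a cell, or 1.88 CPM (1.64 to 2.14). PyMT-N tumor cells held 7 UMIs, or 0.0926 CPM (0.0372 to 0.191), and the log2 ratio was 4.34 (3.28 to 5.67). Those 127 cells held 0 UMIs of Ccl21a, Maf, Flt4 and Csf1r, and 1 of Ptprc, but more of the macrophage gene Cd68 (33.1% against 6.22% of cells) and the endothelial selectin gene Sele (16.5% against 1.47%) than the 4775 tumor cells without Lyve1. They carried Cdh5 at 31.3 CPM (58 cells, 45.7%) against 2.85 CPM (5.15%) in those cells. The endothelial genes Kdr (1 UMI, 0.272 against 0.290 CPM) and Emcn (0 against 0.222 CPM) were not higher. The tumor rule itself allowed no Pecam1 or Flt1. The keratin gene Krt8 was found in 39.4% against 91.9%, so that most of the 127 cells met the tumor rule through Rhox5 alone. Among the 15 highest ratios of 7760 genes with at least 40 UMIs were those of Gm43154 (182 against 14.4 CPM), the matrix protease gene Mmp3 (59.6 against 4.24), the leukocyte actin-bundling gene Lcp1 (87.9 against 7.09), the cytokine gene Tnf (26.1 against 1.76) and the phosphatase gene Inpp5d (60.4 against 5.56). These genes and the split were chosen after their values were seen, and the part of doublets in this set was not tested.

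Pdpn encodes podoplanin, a mucin-like protein of lymphatic endothelium and fibroblasts that binds CLEC-2 on platelets. It was not restricted to lymphatic cells in either library. Lymphatic cells held 118 CPM (68.9 to 189) in PyMT-M and 236 CPM (219 to 254) in PyMT-N, and fibroblasts 233 CPM (194 to 277) and 157 CPM (138 to 179). Other endothelial cells were low, with 1 UMI in 588 PyMT-M cells and 22 UMIs in 1065 PyMT-N cells. Tumor cells differed most between the libraries. PyMT-M tumor cells held 0.712 CPM (0.569 to 0.879) in 1.20% of cells, and PyMT-N tumor cells 85.8 CPM (83.8 to 88.0) in 71.8% of cells, a log2 ratio of -6.91 (-7.24 to -6.61). With every cell thinned to 3000 UMIs the shares were 0.265% and 22.9%. In PyMT-N, Pdpn therefore marked most tumor cells as well as 86.1% of lymphatic cells.

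Ccl21a differed widely between the 2 lymphatic classes. PyMT-N lymphatic cells held 32506 UMIs, or 11062 CPM (10942 to 11183), with a median of 152 and up to 574 UMIs per cell. PyMT-M lymphatic cells held 104 UMIs, or 723 CPM (591 to 876), of which 3 cells held 42, 31 and 30, 1 cell held 1 and 18 cells held 0. In PyMT-N the counts fell into separate ranges, with 175 cells at 12 or more UMIs, 3 cells between 4 and 11, and 31 cells at 3 or less.

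Low counts of Ccl21a were spread over cells of every class in PyMT-N. At least 1 UMI was found in 7.23% (6.37 to 8.17%) of tumor cells (median 20757.5 UMIs per cell), in 7.04% (5.58 to 8.75%) of other endothelial cells (median 12696), in 9.52% of fibroblasts and in 5.60% of Ptprc+ cells. Of the 239 positive tumor cells, 222 held 1 UMI, 14 held 2, 3 held 3 and none held more. The mean was 0.0783 UMIs per tumor cell and 0.0753 per barcode that failed the filter, or 0.0447 without 1 barcode that held 42. Those barcodes are shallow, so that their level was 69.5 CPM against 3.43 CPM in tumor cells. In tumor cells the mean was 0.0484 UMIs per cell in the shallowest of 4 groups by depth and 0.133 in the deepest, and the level was 3.76, 3.54, 2.82 and 3.65 CPM from the shallowest to the deepest. Thinned to 3000 UMIs per cell, the share was 0.938% in tumor cells and 2.08% in other endothelial cells, against 85.6% in lymphatic cells. In PyMT-M, where lymphatic cells held 104 Ccl21a UMIs in all, 3 of 4902 tumor cells and 0 of 58 fibroblasts and 488 Ptprc+ cells had a UMI. For fibroblasts and Ptprc+ cells the exact upper limits were 6.16% and 0.753%. Outside the lymphatic class, cells with 3 or fewer UMIs were treated as background, 3 being the highest count in a PyMT-N tumor cell. The tumor rule left out cells with Pecam1 or Flt1. Of the PyMT-N barcodes that failed the filter, 2 held 4 to 11 UMIs, besides the 1 that held 42. The source of the low counts was not tested.

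**Figure D2:**
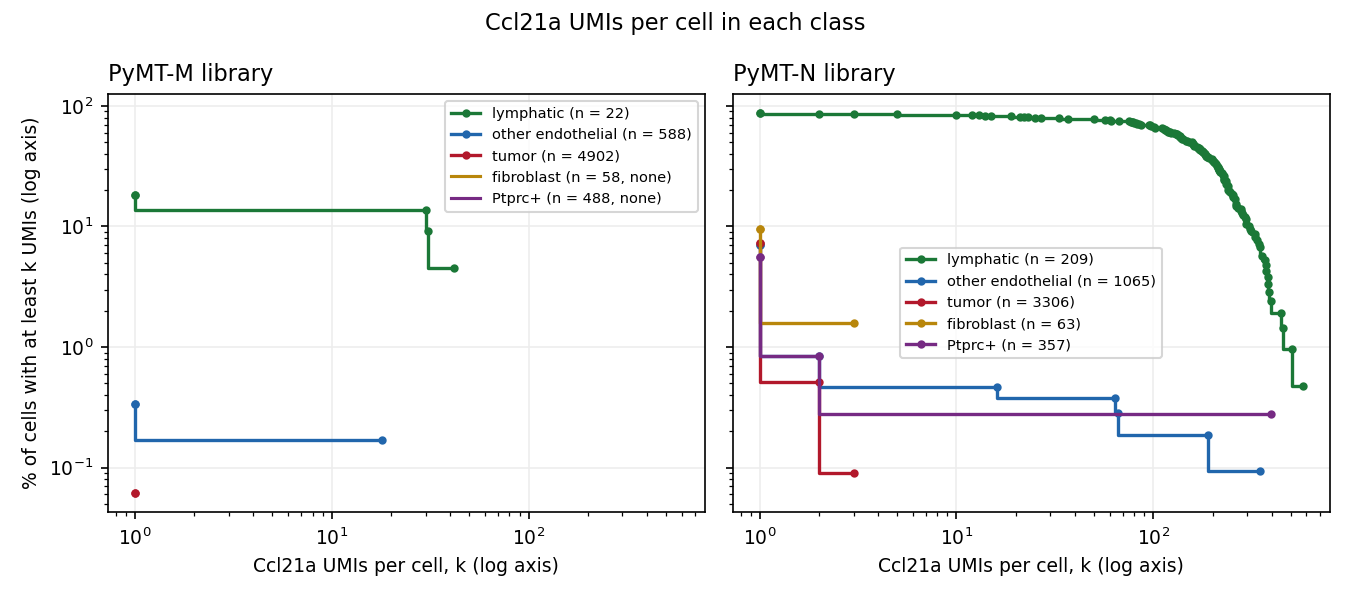
Share of cells with at least k Ccl21a UMIs against k (both axes log) in each class of the PyMT-M and PyMT-N libraries, with the number of cells of a class in the key. In PyMT-N the tumor class ends at 3 UMIs and the lymphatic class at 574, and single cells of the other endothelial and Ptprc+ classes reach 350 and 398.

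If free RNA came from 1 source, its genes would keep 1 ratio, a premise that was not tested. The other genes were compared with Ccl21a in PyMT-N tumor cells. In PyMT-N lymphatic cells there were, per 100 Ccl21a UMIs, 6.14 UMIs of Prox1, 8.80 of Mmrn1, 5.34 of Reln, 4.17 of Scn3a, 3.88 of Nlgn1 and 3.84 of Lyve1. At these ratios the 259 Ccl21a UMIs of tumor cells would come with 15.9 Prox1, 22.8 Mmrn1, 13.8 Reln and 9.95 Lyve1 UMIs. The observed counts were 14, 18, 7 and 7, each below the count at the ratio. The genes were compared singly and not summed. The interval of observed over this ratio held 1 for Prox1 (0.480 to 1.48), Mmrn1 (0.467 to 1.25), Reln (0.203 to 1.04), Lyve1 (0.282 to 1.45) and Nlgn1 (0.908 to 2.60), and lay below 1 for Scn3a (0.101 to 0.951). Pdpn and Maf were far outside it, with 6486 UMIs where the ratio gives 5.52 and 977 where it gives 17.1. Apart from Pdpn and Maf, no gene of the 9 was above the lymphatic ratio in tumor cells by more than counting error. These intervals rest on few UMIs, and Prox1 itself chose the class that gives its ratio. The source of the UMIs was not tested. The lymphatic ratios did not hold everywhere in PyMT-N. In barcodes that failed the filter Prox1 stood at 3.16 times the ratio (1.93 to 4.90) and Scn3a at 3.03 times (1.61 to 5.20). Of their UMIs, 18 of 20 for Prox1 and 8 of 13 for Scn3a lay in 1 barcode each. In other endothelial cells Mmrn1 held 22 UMIs where the ratio gives 66.8 and Reln 9 where it gives 40.6. Of the 759 Ccl21a UMIs behind these values, 5 cells held 16, 66, 350, 64 and 189. The ratios were not taken without these few barcodes and cells. In PyMT-M the 227 Lyve1 UMIs of tumor cells stood against 3.35 at that library's ratio, a quotient of 67.8 (54.0 to 85.6).

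**Figure D3:**
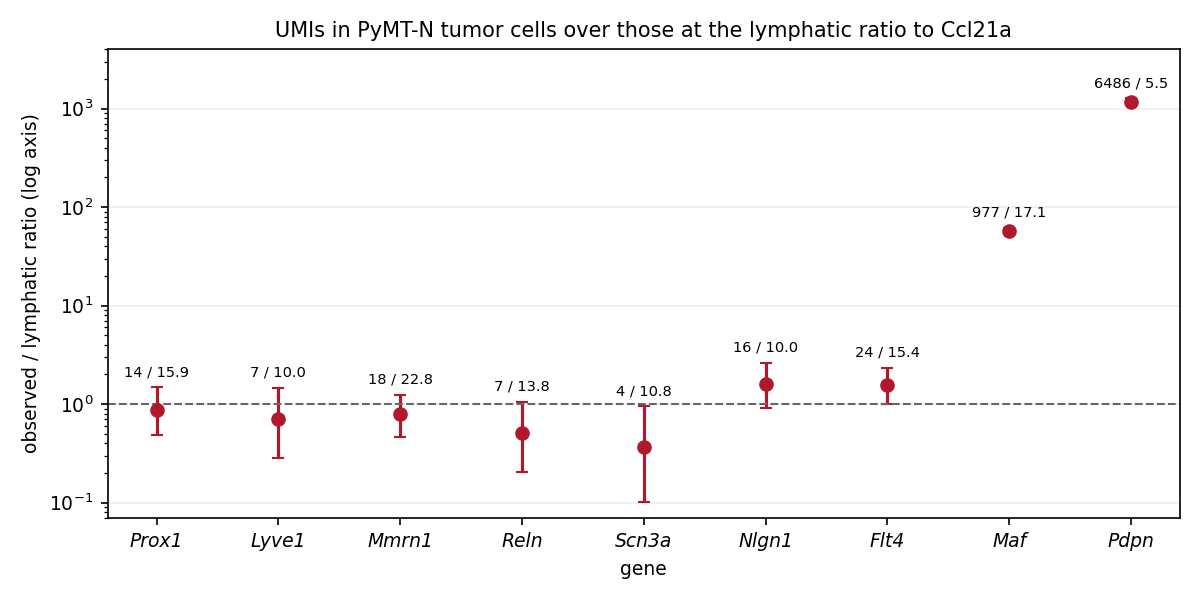
UMIs in PyMT-N tumor cells divided by the UMIs that the lymphatic ratio to Ccl21a gives (log axis), per gene, with exact 95% intervals; the numbers above are observed and ratio UMIs, and the dashed line marks 1. Prox1, Lyve1, Mmrn1, Reln, Scn3a, Nlgn1 and Flt4 lie between 0.370 and 1.59, Maf at 57.1 and Pdpn at 1175.

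Some cells outside the lymphatic class held Ccl21a far above that background. Among PyMT-N other endothelial cells, 5 held 16, 66, 350, 64 and 189 UMIs, and without cells with UMIs of at least 3 of Lyve1, Pdpn, Mmrn1 and Reln the class level fell from 50.9 to 33.8 CPM. The cells with 66 and 189 UMIs also had UMIs of 4 and 7 further marker genes and no Flt1. The cells with 16, 350 and 64 UMIs had at most 1 UMI of any further marker gene and held 7, 15 and 13 Flt1 UMIs. These 3 cells also carried 1, 1938 and 154 UMIs of Glycam1, 1, 2 and 2 of Chst4 and 10, 24 and 3 of Ackr1. Glycam1 and Chst4 encode a ligand of L-selectin and a sulfotransferase known from high endothelial venules, the blood vessels through which lymphocytes enter lymph nodes, and Glycam1 is also a milk protein gene. Chst4 was found in 4 of 1065 PyMT-N other endothelial cells, 3 of which are these cells, and in 0 of 588 in PyMT-M. These genes were chosen after the cells were seen. In PyMT-M 1 other endothelial cell held 18 Ccl21a UMIs, with 11 of Lyve1 and 6 of Mmrn1.

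Mmrn1 and Reln encode the secreted proteins multimerin-1 and reelin, a matrix glycoprotein that lymphatic endothelium releases. Mmrn1 stood at 383 CPM (288 to 498) in PyMT-M and 974 CPM (938 to 1010) in PyMT-N lymphatic cells, in 11 of 22 and 200 of 209 cells. Reln stood at 55.6 CPM (24.0 to 110) and 591 CPM (564 to 620), in 18.2% and 88.0% of cells. Other endothelial cells held 1.82 and 1.48 CPM of Mmrn1 and 0.303 and 0.604 CPM of Reln. The paralog Mmrn2 went the other way, with 125 and 56.8 CPM in lymphatic cells against 349 and 329 CPM in other endothelial cells. In PyMT-N the log2 ratio of lymphatic over other endothelial cells was 9.37 (8.76 to 10.04) for Mmrn1 and 9.94 (9.01 to 11.07) for Reln. Of the reelin receptor genes, Vldlr stood at 23.1 CPM and Lrp8 at 7.49 CPM in PyMT-N lymphatic cells.

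Scn3a encodes a voltage-gated sodium channel subunit and Nlgn1 the neuronal adhesion protein neuroligin 1, which binds neurexins. Scn3a stood at 104 CPM (58.4 to 172) in PyMT-M and 461 CPM (437 to 486) in PyMT-N lymphatic cells, in 18.2% and 83.3% of cells. Other endothelial cells held 4.55 CPM of it in PyMT-M (15 UMIs in 11 cells) and 0.469 CPM in PyMT-N (7 UMIs in 3 cells). Nlgn1 was uneven between cells. PyMT-N lymphatic cells held 429 CPM (405 to 453), with a median of 1 UMI, 51.7% of cells with a UMI, and 64.0% of UMIs in the 21 highest cells. PyMT-M lymphatic cells held 0 UMIs in 22 cells, with exact upper limits of 25.7 CPM and 15.4% of cells. The floor of 3 counts stands at 20.9 CPM and 13.6%. PyMT-M tumor cells held 44 Nlgn1 UMIs in 27 cells (0.364 CPM). Of the neurexin genes, Nrxn2 stood highest in PyMT-N lymphatic cells, at 29.3 CPM against 1.14 CPM in other endothelial cells.

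Between the libraries, 5 of the 9 genes were at least 2-fold lower in PyMT-M lymphatic cells (Ccl21a, Mmrn1, Reln, Scn3a and Nlgn1) and 0 at least 2-fold higher, where 14.5% of 3065 genes were lower and 3.59% higher. All 9 genes reached the UMI limit for such calls only through PyMT-N. Its lymphatic class held 2938572 UMIs, against 143781 in PyMT-M. The count of lower and higher genes is therefore a description. On the log2 scale, the PyMT-M level divided by the PyMT-N level was -3.93 (-4.23 to -3.66) for Ccl21a, -3.41 (-4.62 to -2.43) for Reln, -2.14 (-2.99 to -1.42) for Scn3a and -1.35 (-1.76 to -0.96) for Mmrn1. Nlgn1 held 0 UMIs in PyMT-M and was 20.6-fold lower with that value set at the floor of 3 counts. Its exact upper limit in PyMT-M was 25.7 CPM, against 429 CPM in PyMT-N. Pdpn (-0.996, -1.78 to -0.31), Maf (-0.91, -1.32 to -0.53) and Prox1 (-0.34, -0.69 to -0.01) were lower by less, and Lyve1 was higher (0.92, 0.64 to 1.20). The median of the 9 genes was -1.35, with Nlgn1 below it, against -0.16 over all genes tested. Without the cells that held Flt1, Ptprc or over 1 tumor marker UMI the ratios were -3.37 for Ccl21a, -2.97 for Reln, -1.60 for Scn3a, -1.02 for Mmrn1, -0.51 for Pdpn, -0.32 for Maf, 1.43 for Lyve1 and 0.08 for Prox1, so that Prox1 turned direction. Without those cells Nlgn1 held 0 UMIs in PyMT-M, with an exact upper limit of 45.1 CPM, against 494 CPM in PyMT-N. Of the 18 PyMT-M cells left, 6 held Glycam1 (10 to 214 UMIs) and no Ccl21a, Mmrn1, Reln, Scn3a or Nlgn1. The ratios include these 6 cells and were not taken without them. With 1 library a line, all these ratios are differences between 2 libraries.

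In the other classes few of the 9 genes reached 200 UMIs over both libraries. In other endothelial cells Ccl21a and Maf did and both were at least 2-fold lower in PyMT-M, where 4.18% of 8544 genes were lower and 2.55% higher. The 10 macrophage genes summed to 24.0 CPM in PyMT-M and 320 CPM in PyMT-N other endothelial cells. Their part in the Maf difference was not tested. In tumor cells Pdpn, Ccl21a and Maf were lower and Lyve1 was higher, where 22.3% of 12553 genes were lower and 19.7% higher. In fibroblasts Maf was lower and Pdpn within 2-fold, where 11.7% of 1760 genes were lower and 4.32% higher. In Ptprc+ cells Ccl21a was lower and Maf within 2-fold, where 10.3% of 5630 genes were lower and 7.28% higher, and 398 of the 419 PyMT-N Ccl21a UMIs came from 1 cell that was also in the lymphatic class. The genes called lower in these classes passed the limit through PyMT-N, and Lyve1 in tumor cells passed it through PyMT-M. These calls are therefore a description.

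The number of marker genes per cell also differed. Of the 8 genes other than Prox1, PyMT-N lymphatic cells had UMIs of a median of 7, and 191 of 209 cells (91.4%) had at least 4. PyMT-M lymphatic cells had a median of 2, and 6 of 22 (27.3%) had at least 4. At least 4 were found in 1 of 588 PyMT-M and 2 of 1065 PyMT-N other endothelial cells. Depth was lower in PyMT-M, so shares were also taken with cells thinned to 3000 UMIs, in 18 PyMT-M and 208 PyMT-N cells. Thinned, Ccl21a was found in 16.7% and 85.6%, Mmrn1 in 33.3% and 85.6%, and Reln in 11.1% and 72.6%. Prox1 (66.7% and 76.0%), Lyve1 (9 of 18 cells and 38.0%) and Pdpn (38.9% and 44.7%) had intervals that overlapped.

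**Figure D4:**
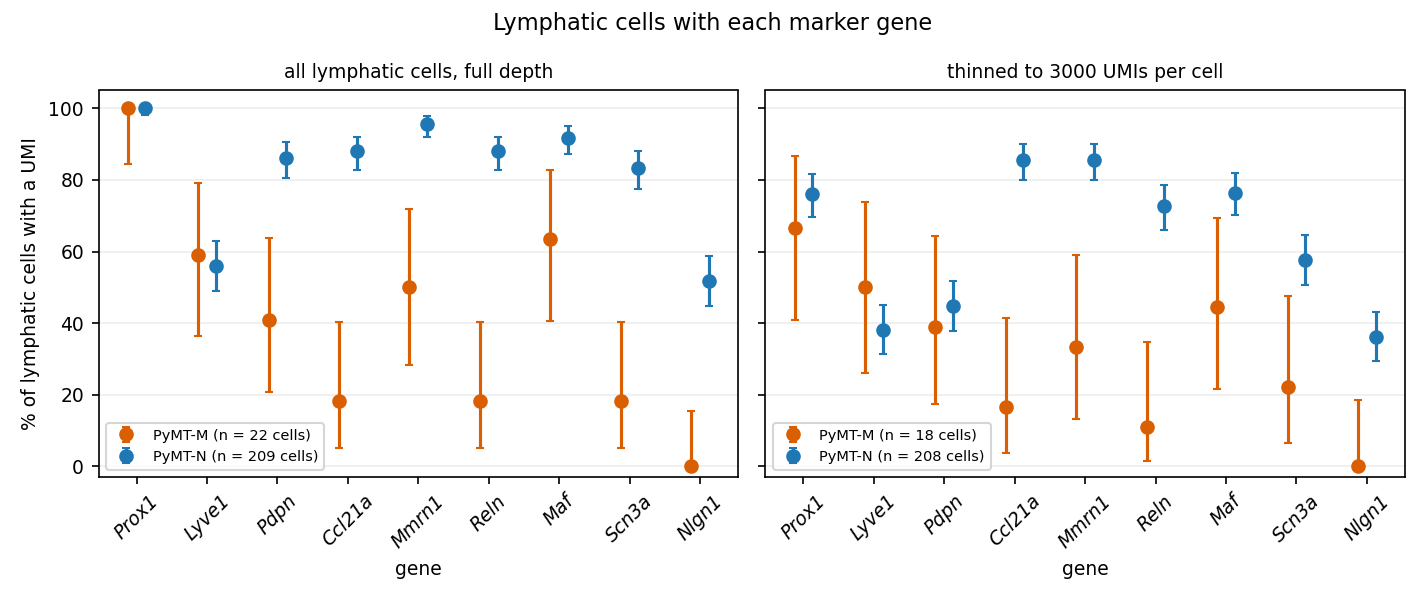
Share of lymphatic cells with at least 1 UMI of each gene in PyMT-M and PyMT-N, at full depth (left) and with each cell thinned to 3000 UMIs (right); bars are exact 95% binomial intervals. After 1 random thinning the intervals of Prox1, Lyve1 and Pdpn overlap between the libraries. Those of the other 6 genes do not, with Maf close to it (up to 69.2% in PyMT-M, from 70.1% in PyMT-N). The intervals cover the counting of cells in 1 library each, and no such share was taken over all genes.

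The lymphatic cells of PyMT-N were not uniform, and they were split by Ccl21a. Leaving out cells with Flt1, Ptprc or over 1 tumor marker UMI, 162 cells held over 3 Ccl21a UMIs and 19 held 3 or fewer. The 19 cells held more of the scavenger receptor gene Stab2, at 808 CPM (681 to 951) in 11 cells against 13.2 CPM (8.79 to 19.1) in 15 cells. They also held more Lyve1 (1341 against 400 CPM) and more of the chemokine-scavenging receptor gene Ackr4 (230 against 1.42 CPM). Over both sets Ackr4 had 44 UMIs in 6 cells, 22 of them in 1 cell. Klhl4 (387 against 85.0 CPM) and the tight junction gene Cldn11 (89.8 against 6.61 CPM) were also higher in the 19 cells. They held less Flt4 (303 against 806 CPM), less of the mechanosensitive channel gene Piezo2 (163 against 798 CPM), and 1 Nlgn1 UMI (5.61 CPM) against 535 CPM. Mmrn1 (920 against 1158 CPM), Reln (516 against 685 CPM) and Scn3a (550 against 558 CPM) were nearer to each other under these limits. Over all 209 cells they were further apart, with Mmrn1 at 420 against 1079 CPM, Reln at 224 against 661 CPM and Scn3a at 235 against 504 CPM in the 31 cells with little and the 178 cells with much Ccl21a. Stab2 and Ackr4 are known from sinus endothelium of lymph nodes, and Ackr4 removes CCL21 from the surroundings.

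The 18 PyMT-M lymphatic cells left by the same limits, of which 3 held over 3 Ccl21a UMIs, are given beside them, without a test. They held 354 CPM of Stab2 (5 cells), 1271 CPM of Lyve1, 147 CPM of Ackr4 (3 cells), 257 CPM of Klhl4, 110 CPM of Cldn11, 306 CPM of Flt4 and 73.3 CPM of Piezo2. Those genes had been picked for their difference between the PyMT-N sets, so their values liken the PyMT-M cells to neither set. Itga9 stood at 709 CPM in PyMT-M, against 253 CPM in the 19 cells and 569 CPM in the 162 cells, and Nr2f2 at 636 against 421 and 635 CPM. Mmrn1 (562 CPM), Reln (85.6 CPM) and Scn3a (183 CPM) were below both PyMT-N sets. Glycam1 stood at 5023 CPM, with 411 UMIs in 6 cells, against 281 CPM (2 cells) and 8.98 CPM (2 cells) in the PyMT-N sets. The 6 cells held between 10 and 214 Glycam1 UMIs and no Ccl21a, Mmrn1, Reln or Scn3a. They count among the 18 cells over which the PyMT-M levels of those genes were taken. In PyMT-M other endothelial cells 3 Glycam1 UMIs were found in 588 cells. The splits and these genes were chosen after values were seen, and the PyMT-M values rest on few cells.

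**Figure D5:**
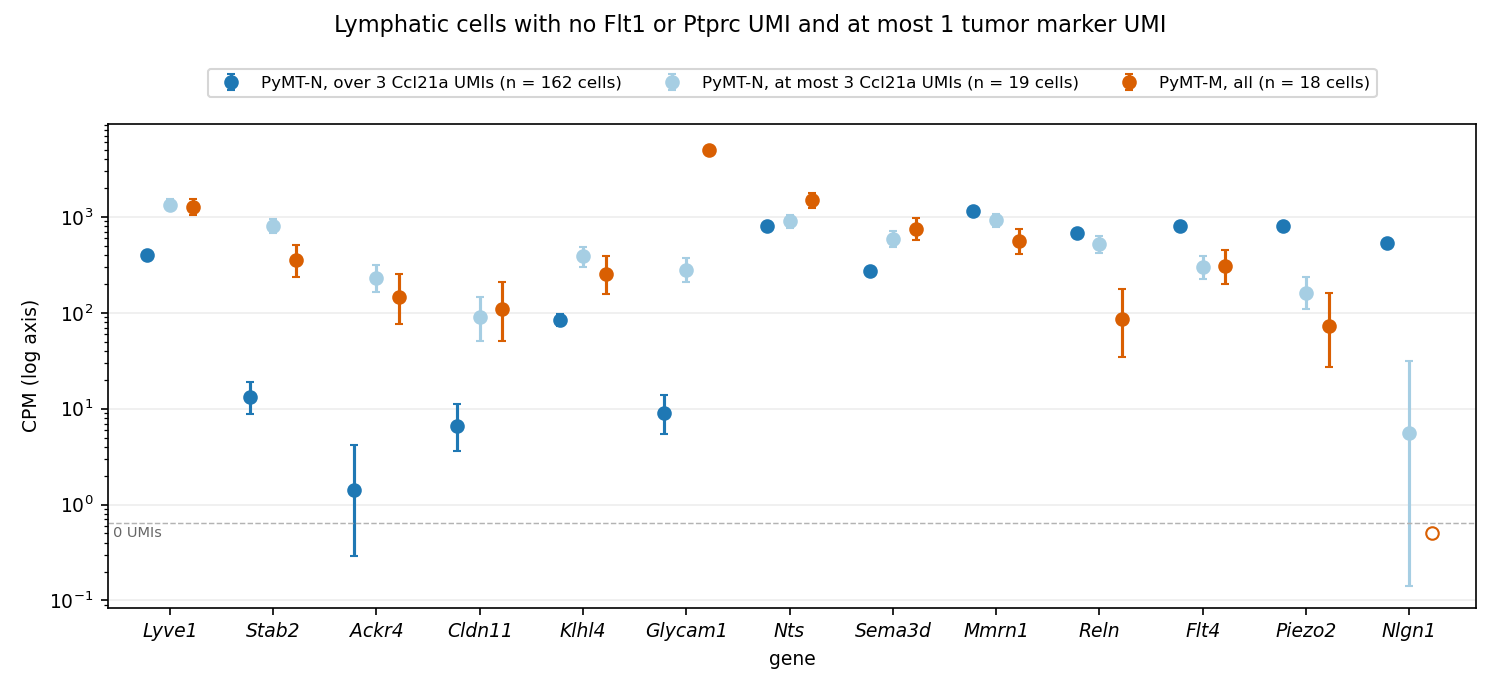
CPM (log axis) of 13 genes in lymphatic cells with no Flt1 or Ptprc UMI and at most 1 tumor marker UMI, for PyMT-N cells with over 3 (162) and at most 3 (19) Ccl21a UMIs and for all 18 such PyMT-M cells; bars are exact 95% Poisson intervals and the open point is 0 UMIs. Stab2 stands at 13.2, 808 and 354 CPM in these sets and Nlgn1 at 535, 5.61 and 0 CPM, and for Glycam1 the PyMT-M value lies above both PyMT-N sets.

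Other genes of lymphatic vessels were counted from lists, with the same limit of 200 UMIs and the background of 6.01% higher and 8.28% lower in PyMT-N. Of 7 further transcription factor genes, 3 were at least 2-fold higher in lymphatic than other endothelial cells (Nr2f2, which encodes a partner of PROX1, at 542 against 78.2 CPM, Tbx1 at 385 against 4.36 CPM and Nfatc1 at 77.3 against 34.1 CPM) and 0 were lower. In VEGF-C and adrenomedullin signaling 4 of 10 were higher and 2 lower. The higher ones were Flt4 (658 against 102 CPM), its co-receptor gene Nrp2 (843 against 170 CPM), Itga9 and Angpt2, and the lower ones the ligand gene Vegfc (5.10 against 80.8 CPM) and the receptor gene Tek. In scavenging and immune guidance 4 of 7 were higher (Ackr2, Stab1, Stab2 and Colec12) and Cxcl12 was lower. Of 10 other lymphatic endothelial genes 9 were higher, among them Nts (688 against 31.9 CPM), Pard6g (376 against 1.61 CPM) and Sema3d (249 against 0.872 CPM). Genes as rare in other endothelial cells as Sema3d reached the limit only through the lymphatic class and could only be called higher. Of 4 valve and collecting vessel genes Celsr1 was higher and Gja1 lower. Blood endothelial genes were lower for 10 of 11, all but Aqp1, and the class rule used Flt1 and Emcn. Of the lower genes, all but Emcn and Plvap held from 4 (Sox17) to 193 (Cd34) UMIs in lymphatic cells. Those genes reached the limit only through other endothelial cells, so this count is a description. Genes of other cells were also present. The 7 fibroblast genes summed to 459 CPM in PyMT-M and 184 CPM in PyMT-N lymphatic cells, against 65.5 and 11.5 CPM in other endothelial cells, and their part in the results was not tested.

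In PyMT-M all 11 blood endothelial genes were lower in lymphatic cells, where 16.9% of all genes were lower and 3.8% higher. Those cells held from 0 (Sox17, Notch4) to 58 (Plvap) UMIs of each. The 11 genes thus reached 200 UMIs only through other endothelial cells, whose rule used Flt1 and Emcn, so this count is a description. Of the 18 genes of the 5 lymphatic lists with at least 200 UMIs, 3 were higher (Nr2f2, Itga9 and Nts), 5 were lower (Sox18, Vegfc, Cxcl12, Piezo2 and Gja1) and 10 were within 2-fold. Tbx1 (181 against 1.52 CPM) and Sema3d (459 against 0.607 CPM) fell under the limit. Of the 10 macrophage genes 1 had a UMI in PyMT-M lymphatic cells, with a summed level of 6.96 CPM, and in PyMT-N the sum was 404 CPM, of which 237 CPM was Mrc1, a macrophage mannose receptor gene that lymphatic endothelium is also known to express. Ccr7, the receptor gene for CCL21, was highest in Ptprc+ cells, at 16.8 CPM in PyMT-M and 45.7 CPM in PyMT-N. Ccl19, the other ligand gene of that receptor, was found with 25 UMIs in PyMT-M fibroblasts (46.5 CPM) and 1 UMI in those of PyMT-N. Between the libraries, 10 of 27 genes of the 5 lymphatic lists were at least 2-fold lower in PyMT-M lymphatic cells (Flt4, Nrp2, Angpt2, Tbx1, Sox18, Ackr2, Stab1, Thy1, Piezo2 and Pard6g), 1 was higher (Stab2) and 16 were within 2-fold, where 14.5% of all genes were lower and 3.59% higher. These genes reached the limit mostly through PyMT-N, whose lymphatic class held 2938572 UMIs against 143781 in PyMT-M. The lists of B cell and T and NK cell genes summed to 0 CPM in PyMT-M lymphatic cells and to 9.19 and 28.6 CPM in those of PyMT-N.

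The pattern of each gene over the 10 class levels (5 classes in 2 libraries) was compared with that of 13877 genes with at least 200 UMIs, by Pearson's r of log2(CPM + 1). The 10 levels share libraries and are few, so r is a description. Gpm6a, which encodes a neuronal membrane glycoprotein, was among the 3 closest to Prox1 (r = 0.982), Lyve1 (0.983), Mmrn1 (0.993), Reln (0.958) and Scn3a (0.974), and stood at 153 CPM in PyMT-M and 132 CPM in PyMT-N lymphatic cells against 1.01 CPM in PyMT-N other endothelial cells. Fgf12 was close to Prox1 and Mmrn1, Stab2 to Prox1 and Lyve1, Gypc to Lyve1, Reln and Scn3a, and Efcc1 to Mmrn1, Reln and Scn3a. Ackr2 was close to Ccl21a (0.946), along with Adnp and Slc35d2, which were found in every PyMT-N class. Nlgn1 was closest to Apba2 (0.943), an adaptor gene with 165 CPM in PyMT-N and 0 UMIs in PyMT-M lymphatic cells, then to Mad1l1 and 1810008I18Rik. Pdpn was closest to Mettl7a1, Osr1 and Tenm3, and Maf to Ip6k1, Fgl2 and Mturn.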

How the data were processed

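Droplet-based single-cell RNA sequencing of PyMT-M and PyMT-N tumors gave 2 libraries, each a pool of 3 tumors. Whole-number UMI counts, not normalized, were deposited by the authors for each gene and barcode, made with Cell Ranger 8.0.0 on mm39 per the submitters' processing notes. Counting can divide or drop reads that match several near-identical genes. No mm39 sequence was used, and sequences come from RefSeq (GRCm38.p6) and GENCODE M21. The marker genes, class rules and gene lists were chosen with earlier results of these data known.

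Cells were classed by UMI limits, counts were summed per class and library, and levels were given as CPM. Poisson, Clopper-Pearson and conditional ratio intervals (95%) were computed with scipy 1.17.1. Clopper-Pearson intervals were tested on simulated binomial counts and ratio intervals on simulated Poisson counts, without added spread between cells. The Poisson intervals were not tested. With 1 library per line no test between lines or classes was possible and none was computed from cells. A gene counted as higher or lower at 2-fold or more with at least 200 UMIs over both classes, and a value of 0 was set at a floor of 3 counts over the class. Shares were also taken after thinning to 3000 UMIs. Doublets were kept, and leaving out the 6% of barcodes with the highest Scrublet scores (scanpy 1.11.5) was an alternative. Depth was 141067264 and 116150425 UMIs. The genes named are the 9 markers in every class, the 3 nearest to each in pattern, and the 3 highest of each list in PyMT-N lymphatic cells with known copies, ligands and receptors; others are named as chosen after values were seen. Alternatives were tighter limits on genes, mitochondrial UMIs (5%), Prox1 (2 UMIs) and tumor markers, cells of several classes left out, the mean over cells and another total. Python 3.11.15, numpy 2.4.6 and pandas 2.3.3 were used.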

Additional observations from a re-analysis of the deposited data

How the results depend on the processing

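No paired analysis was possible because each line has 1 library. The share of lymphatic cells was 0.179% in PyMT-M with at least 2 Prox1 UMIs, and 3.23% in PyMT-N without cells holding Flt1, Ptprc or over 1 tumor marker UMI, a limit chosen after seeing the data. The summed level of the 8 genes other than Prox1 in lymphatic cells, 2580 CPM in PyMT-M and 14908 CPM in PyMT-N, was 2899 and 15732 CPM with at least 2 Prox1 UMIs, 4026 and 16362 CPM without cells of over 1 tumor marker UMI, 4205 and 17406 CPM under the added limit, 3443 and 16548 CPM without the highest Scrublet scores, 3325 and 18647 CPM with mitochondrial, ribosomal and hemoglobin genes out of the total, and 3251 and 16834 CPM as a mean over cells. It was 2155 CPM in PyMT-M with genes per cell within 2-fold of the median, 14562 CPM in PyMT-N at 5% mitochondrial UMIs and 15127 CPM in PyMT-N without cells of several classes. Ccl21a alone gave 11062 CPM of the 14908 CPM in PyMT-N and 723 CPM of the 2580 CPM in PyMT-M. The sums therefore mostly follow Ccl21a in PyMT-N, and no sum without it is given. The log2 ratio of the 2 sums, -2.53 for PyMT-M over PyMT-N, was -2.79 with the limit on genes, -2.02 without cells of over 1 tumor marker UMI and -2.05 under the added limit. The Prox1 ratio reversed under those last limits, to 0.099 and 0.082. Thinned to 3000 UMIs, the share of cells with Ccl21a was 0% and 0.938% in PyMT-M and PyMT-N tumor cells and 0% and 2.08% in other endothelial cells. In PyMT-M other endothelial cells the Ccl21a share and level were 0 with the limit on genes, and the level was 0.304 CPM without cells holding 3 of 4 lymphatic genes. In PyMT-N that level was 33.8 CPM without those cells, 27.9 CPM without the highest Scrublet scores and 55.0 CPM without cells of several classes. The cause of these shifts was not tested. The 22 PyMT-M lymphatic cells, at a median of 4695 UMIs, limit every PyMT-M value.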

Other observations

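Further cells with more than 3 Ccl21a UMIs lay in none of the 5 classes. In PyMT-N 6 such cells held 6, 15, 21, 24, 51 and 62 Ccl21a UMIs. The cell with 62 also held 6 Prox1, 35 Lyve1 and 18 Mmrn1 UMIs, and the cell with 6 held 1 Nlgn1 UMI and none of the other 7 genes. In PyMT-M 1 such cell held 4 Ccl21a, 1 Prox1, 7 Lyve1 and 5 Mmrn1 UMIs. Among barcodes that failed the filter, 1 in PyMT-M held 23 Ccl21a UMIs, and 45 of 1367 in PyMT-N held at least 1.

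Tbx1, a T-box transcription factor gene, was also found in tumor cells. It stood at 37.4 CPM in PyMT-M tumor cells, in 55.3% of them, and at 1.10 CPM in PyMT-N tumor cells, in 1.91%. Sema3d, which encodes a secreted guidance protein, went the other way, at 0.0745 CPM in PyMT-M and 16.0 CPM in PyMT-N tumor cells.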
